A study of Homo sapiens with 4 samples.

Results

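The genes described here are 8 enzymes of heme synthesis: ALAS1, ALAS2, ALAD, UROS, UROD, CPOX, PPOX and FECH. Each was taken as the table entry whose gene names included its symbol, and where several did, as the one with the highest mean count over the libraries. The rule used no comparison of the groups. It gave 8 of the 64873 entries of the table. RNA was sequenced from K562 cells, an erythroleukemia line, that overexpressed U2AF1 with the S34F change, a mutant of the small subunit of the splicing factor that reads the 3′ splice site. The cells received either DMSO, the solvent control, or 30 uM SF1-8, a compound found in a fragment screen against the UHM domain of U2AF1, for 48 h, and each group had 2 libraries. The comparison asks which entries of the table differ in abundance after SF1-8, and an entry can pool several transcripts. All 4 libraries carried the overexpressed mutant and came from a single line, so neither U2AF1 without the change nor a second line enters the comparison, and since no label says that the libraries of a group came from separate cultures, p-values measure only the spread between these samples.

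Heme is an iron-holding ring that hemoglobin, cytochromes and many oxidases need. Its synthesis starts in the mitochondrion, where glycine and succinyl-CoA are joined to aminolevulinate, continues in the cytosol, where aminolevulinate is built into a porphyrin ring, and ends in the mitochondrion, where iron is put into protoporphyrin. The entry step is made by ALAS1 in nearly all cells and by ALAS2 in erythroid cells, and these isozymes are controlled differently: heme holds ALAS1 down, whereas GATA1 drives the ALAS2 gene and iron sets the translation of its mRNA. K562 cells make fetal and embryonic hemoglobin, and heme synthesis in them rises when they mature.

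ALAS1 and ALAS2 are the pair of members most alike in sequence, so their coding sequences were compared to see where reads could be shared. Those sequences (GENCODE 29, 1923 and 1764 nt) were identical at 69.2% of 1744 aligned positions. The longest run of bases shared without a mismatch was 21, and no other of the 28 pairs of members shared more than 14. The most alike stretch of 60 bases differed at 8 bases, shown in capitals, and is given 5′ to 3′ from position 1309 to 1368 of the ALAS1 and from 1147 to 1206 of the ALAS2 coding sequence.
ALAS1: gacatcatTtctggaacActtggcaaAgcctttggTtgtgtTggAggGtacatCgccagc
ALAS2: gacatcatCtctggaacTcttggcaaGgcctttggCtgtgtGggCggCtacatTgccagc

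The promoters of the isozymes are shown because one gene is housekeeping and the other erythroid, and their levels in these cells were close. The 250 bases before each start site were taken from RefSeq (GRCh38.p14), at chr3:52197833-52198082 on the plus strand for ALAS1 and chrX:55030978-55031227 on the minus strand for ALAS2, and are written 5′ to 3′ along the gene. Capitals mark matches, on either strand, to the GATA motif (GATAA), the CACCC box (letters CACCC), the GC box (GGGCGG) and the TATA box (TATAAA).
ALAS1: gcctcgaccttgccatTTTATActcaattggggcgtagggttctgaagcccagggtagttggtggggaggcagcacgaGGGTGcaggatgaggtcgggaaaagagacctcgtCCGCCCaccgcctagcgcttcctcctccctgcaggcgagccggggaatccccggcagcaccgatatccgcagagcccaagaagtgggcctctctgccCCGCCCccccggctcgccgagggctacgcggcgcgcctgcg
ALAS2: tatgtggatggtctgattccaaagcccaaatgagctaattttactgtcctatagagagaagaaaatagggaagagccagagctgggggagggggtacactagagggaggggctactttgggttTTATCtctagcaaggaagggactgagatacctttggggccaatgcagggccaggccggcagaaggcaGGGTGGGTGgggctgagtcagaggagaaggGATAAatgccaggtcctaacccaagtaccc
The ALAS2 window held GATAA matches starting 127 and 30 bases before the start site and a pair of CACCC matches that share a base, and it held no GGGCGG. The ALAS1 window held 2 GGGCGG matches, 1 CACCC match and 1 TATAAA match but no GATAA, and its GC content was 67.2% against 52.8% in ALAS2. Of all 35116 windows of this length in the RefSeq table, 20.4% held GATAA, 54.7% CACCC, 42.6% GGGCGG and 10.7% TATAAA. The 7 members in that table had 9 windows, of which 3 held GATAA (in ALAS2, CPOX and PPOX), 5 CACCC, 7 GGGCGG and 1 TATAAA. A match describes these letters and is not evidence of binding.

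The libraries held between 45522905 (DMSO 1) and 67554610 (SF1-8 1) estimated counts, of which 10.99% to 14.04% lay on ribosomal RNA loci. The sum of the erythroid-like markers was 276 and 275 FPKM in DMSO and lower in both SF1-8 libraries, at 252 and 269, where FPKM is the fragment number scaled to the length of the entry and the depth of the library, and 7 of their 8 entries exceeded 1 FPKM in every library. The sum of the fibroblast-like markers was low and was lower with SF1-8, at 14.0 and 8.39 FPKM in DMSO against 6.14 and 4.44, with 1 of 10 above 1 FPKM in every library. Collagen genes made up most of the difference, with COL1A1 at 5.39 and 2.60 FPKM against 1.21 and 0.0982, COL1A2 at 2.16 and 1.22 against 0.729 and 0.399, and COL3A1 at 1.92 and 0.697 against 0.319 and 0.0570. The marker above 1 FPKM in every library was PDGFRA, in an entry shared with FIP1L1, at 3.33 and 3.22 FPKM in DMSO and 3.48 and 3.67 in SF1-8, while LUM and DCN were at 0.170 and 0.0815 FPKM in DMSO 1 and listed at 0 in SF1-8 2. The T cell-like sum was 6.14 and 5.18 FPKM in DMSO and 4.44 and 4.25 in SF1-8, most of it from CD3D (5.14 and 4.68 against 3.91 and 3.82), and CD3E was also lower (0.270 and 0.116 against 0.0338 and 0), while CD3G and CD2 overlapped between the groups. The B cell-like sum was 0.382 and 0.353 against 0.460 and 0.502. The liver-like sum was 0.343 and 0.421 against 0.179 and 0.322, with ALB and APOA1 overlapping between the groups and TTR listed at 0 in all libraries, and the monocyte-like sum overlapped at 4.27 to 5.88 FPKM. None of these sums was tested. The part of these markers in the results below was not tested.

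None of the 8 heme synthesis enzymes changed past the threshold of an adjusted p under 0.05 in edgeR's quasi-likelihood test, against 0.0420% of the 26167 genes tested. None had an unadjusted p under 0.05, against 4.33% of genes, and DESeq2 also called none of them, against 0.585% of genes. In none did the groups separate, that is, in each the range of the SF1-8 libraries overlapped that of DMSO on normalized counts, whereas the groups were apart in 35.5% of all genes tested and in 36.0% of the 8453 genes at least as abundant as the lowest member. All 8 passed the filter on low counts. The fitted change was below 0 in 5 and above 0 in 3, with a median of -0.022 on the log2 scale beside -0.011 over all genes tested. Its median size was 0.078, beside 0.081 over the 8453 genes. Because these are bulk samples, fewer cells of a type and less RNA per cell cannot be told apart in any of these levels.

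**Figure D1:**
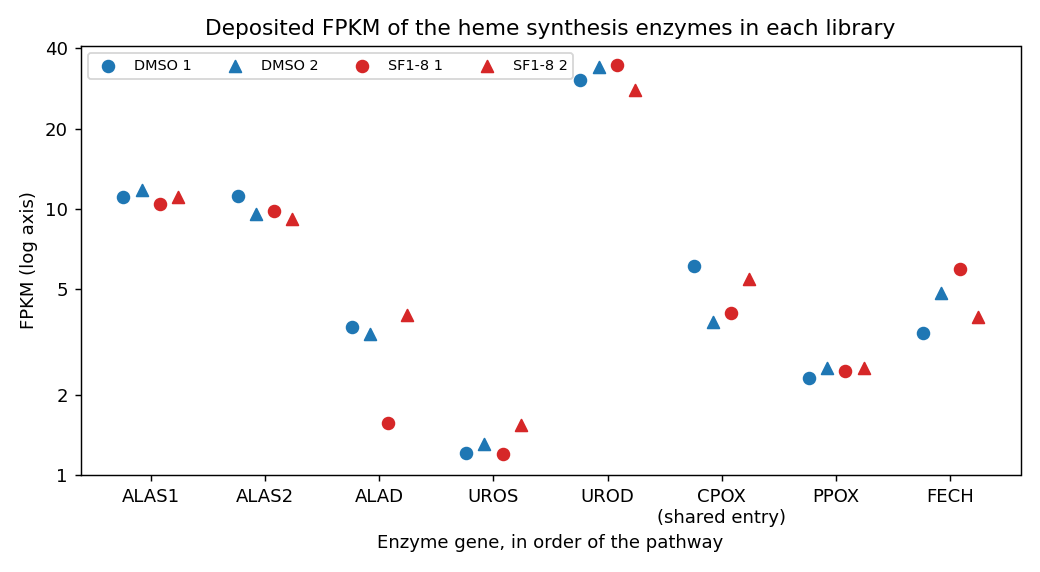
FPKM (log axis) of each of the 8 enzymes in each library, in pathway order, with DMSO libraries as blue and SF1-8 libraries as red points (circle, replicate 1; triangle, replicate 2). UROD stands highest at 27.8 to 34.6 FPKM and UROS lowest at 1.20 to 1.55, and in every gene the ranges of the groups overlap.

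At the entry step, the ubiquitous and the erythroid isozyme were present at nearly equal level. ALAS1 (chr3:52198086-52214327, plus strand) had 11.08 and 11.79 FPKM in DMSO and 10.44 and 11.12 in SF1-8. The upper SF1-8 library just passed the lower DMSO library, and the difference was -0.059 on the log2 scale (95% interval -0.34 to 0.22; edgeR's quasi-likelihood test, Benjamini-Hochberg adjusted p = 0.972). ALAS2 (chrX:55009055-55030977, minus strand) had 11.1 and 9.53 FPKM in DMSO and 9.79 and 9.15 in SF1-8, so the higher SF1-8 library lay between the DMSO libraries. Its difference was -0.096 (interval -0.39 to 0.20, adjusted p = 0.970 in the same test). The ratio of ALAS2 to ALAS1 was 1.01 and 0.809 in DMSO and 0.938 and 0.824 in SF1-8, overlapping between the groups. Together the isozymes gave 22.2 and 21.3 FPKM in DMSO and 20.2 and 20.3 in SF1-8. In this sum both SF1-8 libraries lay below both DMSO libraries, although in neither gene alone did the groups separate. The sum was not tested, and on normalized counts the groups were apart in 35.5% of all genes tested.

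The cytosolic enzymes ranged from the most abundant member to the least. ALAD (chr9:113386312-113401284, minus strand), which joins aminolevulinate molecules into porphobilinogen, was the member whose SF1-8 libraries differed most. It had 3.61 and 3.39 FPKM in DMSO but 1.57 and 3.98 in SF1-8, with counts of 655 and 1592 in the SF1-8 libraries. SF1-8 1 was thus the lowest of the 4 libraries and SF1-8 2 the highest. On normalized counts the log2 difference between these replicates was 1.32, a size reached by 1.17% of the 8453 genes of like or higher abundance. The DMSO replicates differed by -0.014 on that scale. The group difference was -0.31 (SE 0.42; interval -1.38 to 0.76; edgeR's quasi-likelihood test, Benjamini-Hochberg adjusted p = 0.970). Leaving out SF1-8 1 turned it to 0.21, and leaving out SF1-8 2 instead gave -1.11 with an adjusted p of 0.237 in edgeR, so a single library decided its direction.

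UROS (chr10:125784980-125823258, minus strand), uroporphyrinogen III synthase, closes the tetrapyrrole ring with the right side-chain order. It had 1.21 and 1.31 FPKM in DMSO and 1.20 and 1.55 in SF1-8. On FPKM the SF1-8 libraries just spanned the DMSO libraries, but on normalized counts SF1-8 1 lay between them. The difference was 0.15 (interval -0.29 to 0.59, edgeR adjusted p = 0.970). UROD (chr1:45010950-45015575, plus strand) removes carboxyl groups from uroporphyrinogen. It had 30.5 and 33.9 FPKM in DMSO and 34.6 and 27.8 in SF1-8, again with the SF1-8 libraries on either side of the DMSO libraries. Its difference was -0.022 (interval -0.38 to 0.34, edgeR adjusted p = 0.993). UROD alone made up 43.9% and 47.7% of the summed FPKM of the 8 entries in DMSO and 49.3% and 42.5% in SF1-8, and the sum itself was 69.4 and 71.1 against 70.0 and 65.5. The sum includes the CPOX entry, which also holds other genes.

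The last steps take place in the mitochondrion. CPOX, which oxidises coproporphyrinogen, could not be measured on its own, since its entry (chr3:98497912-98593610, minus strand) also names CLDND1 and AC021660. That entry had 6.12 and 3.77 FPKM in DMSO and 4.08 and 5.44 in SF1-8. Both SF1-8 values lay between the DMSO values. On normalized counts the DMSO libraries were 0.62 apart on the log2 scale, and the group difference was -0.021 (interval -0.64 to 0.60, edgeR adjusted p = 0.996). PPOX (chr1:161166056-161178013, plus strand) makes protoporphyrin and shares 1118 nt of exon with B4GALT3 on the opposite strand. It was the steadiest member in SF1-8, with 2.45 and 2.52 FPKM, against 2.31 and 2.53 in DMSO. Its difference was 0.058 (interval -0.29 to 0.41, edgeR adjusted p = 0.981). Without strand in the counting, which is not stated, reads of PPOX and B4GALT3 cannot be told apart where they overlap.

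FECH (chr18:57544377-57586702, minus strand), the enzyme that inserts iron and that itself carries an iron-sulfur cluster, had 3.41 and 4.84 FPKM in DMSO and 5.95 and 3.91 in SF1-8. The groups overlapped, because SF1-8 2 lay between the DMSO libraries. It had the smallest unadjusted p of the members, 0.361, and a difference of 0.28 (interval -0.43 to 0.98; edgeR's quasi-likelihood test, Benjamini-Hochberg adjusted p = 0.970). On the log2 scale of normalized counts the replicates differed by 0.58 in DMSO and by -0.62 in SF1-8. These sizes were reached by 6.21% and 5.08% of the 8453 genes.

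**Figure D2:**
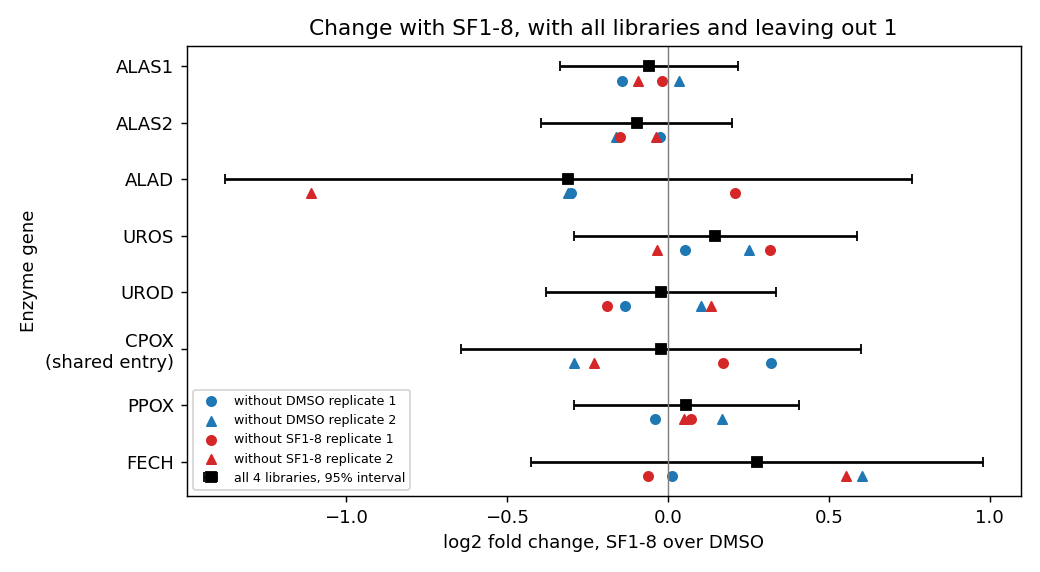
Log2 fold change of SF1-8 over DMSO for each enzyme, fitted by edgeR, as black squares with 95% intervals as bars, and below each the fits that leave out a DMSO (blue) or SF1-8 (red) library (circle, replicate 1; triangle, replicate 2). Every interval spans 0, and it is narrowest for ALAS1 (-0.34 to 0.22) and widest for ALAD (-1.38 to 0.76).

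The intervals give the changes that the fit leaves possible at the 95% level. For ALAS1 they ran from 0.793 to 1.16 times the DMSO level, for ALAS2 from 0.762 to 1.15, for UROD from 0.769 to 1.26, for PPOX from 0.817 to 1.33 and for UROS from 0.817 to 1.502. For CPOX they ran from 0.641 to 1.52, for FECH from 0.744 to 1.97 and for ALAD from 0.385 to 1.69. The standard errors of these last genes were the largest. The intervals are not adjusted for the number of genes tested. When each library was left out in turn, 7 of the 8 changes took the other sign in at least 1 fit, all but ALAS2, which stayed between -0.16 and -0.024. On TPM, which rescales each library's FPKM to a fixed sum, ALAS1, ALAS2, UROD and PPOX were lower in both SF1-8 libraries. On that scale the median of all genes tested shifted by -0.18, the members' by -0.20, UROS by -0.0017 and PPOX by -0.095, and 7588 of the 26167 genes lay below both DMSO libraries in both SF1-8 libraries, against 1651 above.

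The levels of the enzymes depended on which gene length was used. Deposited FPKM fell in the order UROD, ALAS1, ALAS2, the CPOX entry, FECH, ALAD, PPOX and UROS in DMSO. UROD was at 32.2 ± 2.44 (SD, n = 2), ALAS1 at 11.4 ± 0.502, ALAS2 at 10.3 ± 1.14, CPOX at 4.95 ± 1.66, FECH at 4.13 ± 1.01, ALAD at 3.50 ± 0.157, PPOX at 2.42 ± 0.153 and UROS at 1.26 ± 0.0714. Over all 4 libraries the ranges of UROD and ALAS1 were apart, as were those of ALAS2 and CPOX and those of PPOX and UROS, whereas ALAS1 overlapped ALAS2, and CPOX, FECH, ALAD and PPOX each overlapped the next. Of the genes tested, 97.1% had no more FPKM than UROD and 51.0% no more than UROS. The length these values divide by is not in the table and was calculated from each entry's count and FPKM. For UROS it came to 9556 nt, close to all its GENCODE exons together (9532 nt), whereas its longest principal GENCODE transcript has 1371 nt. For FECH it was 8798 nt against 4473 nt of GENCODE exons and for UROD 4034 nt against 2908 nt, so these entries are longer than their annotated exons. The calculated length was 6.97 times that of the principal transcript for UROS, against 1.04 times for ALAS1, 1.01 for ALAS2, 1.56 for ALAD, 2.28 for FECH, 2.74 for PPOX and 3.10 for UROD.

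Scaling the same values to the longest principal transcript, an alternative chosen after the data were seen, gave another order in DMSO. UROD was first at 99.98 ± 7.47, ahead of ALAS1 (11.9 ± 0.524), ALAS2 (10.5 ± 1.14), FECH (9.42 ± 2.30) and UROS (8.77 ± 0.484), and PPOX (6.65 ± 0.402) and ALAD (5.47 ± 0.251) followed. UROS thus moved from the last of 8 to the fifth of 7, since CPOX could not be given here, and over all 4 libraries ALAS1, FECH, ALAS2 and UROS each overlapped the next, while PPOX and ALAD stood apart below them. Relative to ALAS1, UROS was 0.110 by deposited FPKM and 0.735 by principal length, whereas ALAS2 was 0.904 and 0.876. In SF1-8 the same scale gave 96.8 ± 14.8 for UROD, 11.3 ± 0.492 for ALAS1, 9.57 ± 0.454 for ALAS2, 11.2 ± 3.28 for FECH, 9.56 ± 1.69 for UROS, 6.80 ± 0.110 for PPOX and 4.34 ± 2.65 for ALAD. The choice between these lengths does not touch a difference between groups, because each is fixed for a gene and cancels. Whether SF1-8 shifted the use of transcripts within an entry was not tested.

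**Figure D3:**
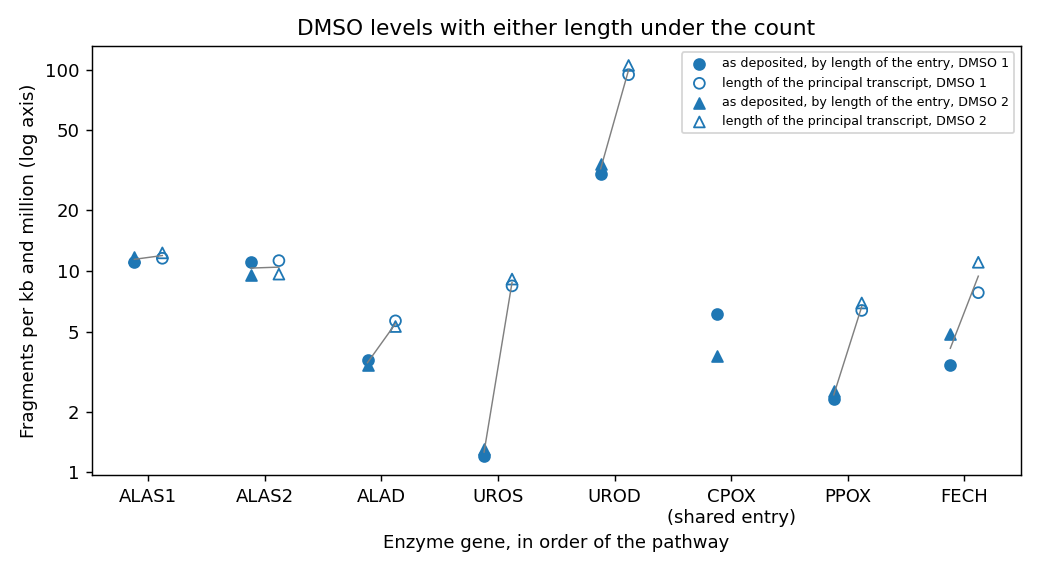
Level of each enzyme in DMSO (log axis) by deposited FPKM, which divides by the length of the entry, and by the longest principal transcript (filled and open points, 1 per library, with a line between the means). UROS moves from 1.26 to 8.77 and UROD from 32.2 to 99.98, while ALAS1 (11.4 to 11.9) and ALAS2 (10.3 to 10.5) hardly move, and CPOX is shown by deposited FPKM only.

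Around the enzymes, 48 partner genes in 4 lists were examined, of which 47 were tested. None passed the adjusted threshold in edgeR, and 2 of the 47 had an unadjusted p under 0.05, a share near the 4.33% of all genes tested. The median change of the 47 was 0.0025 (log2), beside -0.011 over all genes tested. In 17 of the 47 the groups did not overlap, and 35.5% of all genes tested were apart in this way. The list of iron-sulfur cluster assembly, which covers early and late steps, held 14 genes, of which 9 were lower and 5 higher, with a median of -0.024. ISCA2, which takes part in building clusters late in that pathway, had 2.20 and 2.46 FPKM in DMSO and 1.08 and 1.00 in SF1-8. Both SF1-8 libraries lay below both DMSO libraries, with a difference of -1.13 (SE 0.18; edgeR's quasi-likelihood test, Benjamini-Hochberg adjusted p = 0.530, unadjusted p = 0.00148). DESeq2 put it past the threshold, with an adjusted p of 0.00707, and over all alternatives the adjusted p ranged from 0.00707 to 0.911. Its difference was smaller on log2(FPKM + 1) in limma, at -0.71, and after quantile normalization, at -0.62. ISCA2 shares 103 nt of exon with NPC2 on the opposite strand. GLRX5, which hands clusters on, had 16.7 and 17.3 FPKM in DMSO and 18.4 and 19.2 in SF1-8 (difference 0.17, edgeR adjusted p = 0.970), and leaving out DMSO 1 brought its difference to 0.11.

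Among 11 genes for transport of heme intermediates and iron, 6 were lower and 5 higher, with a median of -0.017. The entry of TMEM14C, which carries protoporphyrinogen into the mitochondrial matrix, also names TMEM14B, AL024498 and SYCP2L. It had 8.28 and 8.41 FPKM in DMSO and 10.6 and 10.4 in SF1-8, a gap with no overlap, with a difference of 0.36 (SE 0.072; unadjusted p = 0.00379, edgeR adjusted p = 0.755). PGRMC1, a heme-binding partner of FECH, had 56.9 and 53.8 FPKM in DMSO and 57.6 and 61.4 in SF1-8 (edgeR adjusted p = 0.970). Supply of glycine and succinyl-CoA (8 genes, 2 lower and 6 higher, median 0.070) included SHMT2, which makes mitochondrial glycine, at 16.5 and 21.3 FPKM in DMSO and 15.4 and 13.2 in SF1-8, and SUCLA2, a subunit of succinyl-CoA synthetase, at 3.23 and 3.17 against 3.53 and 3.63. Their differences were -0.38 and 0.19, both with an edgeR adjusted p of 0.970. SHMT2 came to -0.13 when DMSO 2 was left out and to -0.59 when DMSO 1 was.

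Of 15 genes that control the pathway, 14 were tested (PPARGC1A was not), with 6 lower and 8 higher and a median of 0.0034. GATA1, the erythroid factor whose motif letters lie in the ALAS2 window above, had 76.0 and 79.1 FPKM in DMSO and 75.9 and 75.9 in SF1-8. Normalized counts of GATA1 overlapped between the groups, with a difference of -0.0050 (edgeR adjusted p = 0.998), and it is named here although its values were already seen and the rule for partner genes did not choose it. NFE2, another erythroid factor, had 24.9 and 25.3 against 22.1 and 22.9, and CLPP, the protease partner of CLPX, which acts on the ALAS enzymes, had 10.4 and 10.5 against 9.51 and 9.12. In NFE2 and CLPP both SF1-8 libraries lay below both DMSO libraries, with differences of -0.13 and -0.14 and an adjusted p of 0.970 in edgeR's test. Leaving out DMSO 2 brought them to -0.072 and -0.084.

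**Figure D4:**
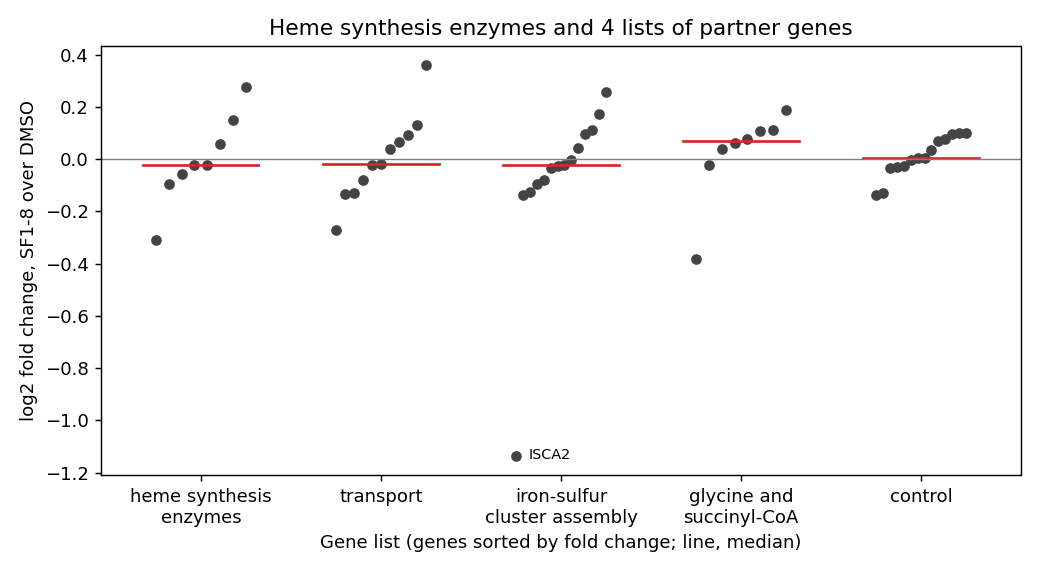
Log2 fold change of SF1-8 over DMSO for the 8 enzymes and the tested genes of each partner list, fitted by edgeR, with each gene as a point and the median of a list as a red line. The points of the partner lists lie between -1.13 (ISCA2) and 0.36 (TMEM14C), and the medians of the 4 lists lie between -0.024 and 0.070.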

How the data were processed

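RNA of 4 libraries was depleted of ribosomal RNA and prepared with a TruSeq total RNA protocol. The submitters' processing notes name cutadapt, FastQC, Bowtie2, HISAT2, StringTie and hg38, without versions. The authors deposited one table with an estimated count and an FPKM per entry and library. The deposited FPKM is scaled by the authors for entry length and depth, and the deposited estimated counts are whole numbers without normalization. The read length and the counting strand are not given in the sources used here. Groups came from the sample labels.

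Estimated counts were tested with edgeR 4.0.16 (R 4.3.3; TMM, filterByExpr, quasi-likelihood test, Benjamini-Hochberg adjustment over 26167 genes, threshold 0.05). The 2095 entries that name no gene, with 0.358% to 0.421% of counts, were left out. Alternatives used DESeq2 1.42.0 and limma 3.58.1 on log2(FPKM + 1), and a smaller pseudocount of 0.1. The length behind a deposited FPKM was calculated from the count, the FPKM and a depth calibrated on 404 single-transcript entries, and transcript lengths came from GENCODE 29. All 8 enzymes were named, and from each partner list the genes passing the threshold or else those with the smallest and second smallest p. The genes and lists were chosen with earlier results of these data known. Scripts were tested on simulated data. Depth is the total count. A count may not be 1 read, so no counting interval is given, and precision comes from the spread between libraries.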

Additional observations from a re-analysis of the deposited data

How the results depend on the processing

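With 2 libraries a group, precision rests on the spread between them, and the intervals are not adjusted for the genes tested. None of the 8 enzymes passed the threshold in any of 15 alternatives (DESeq2, edgeR without a filter, with a replicate block, with upper-quartile scaling, without ribosomal RNA loci, with entries of a symbol summed or counts divided by 4, 4 limma fits on FPKM, and leaving out each library), and only ALAD, when SF1-8 2 was left out, came below 0.05 before adjustment (adjusted p = 0.237 in edgeR). In the 11 alternatives fitted with all libraries no enzyme changed sign. Of these, summing entries left the enzymes' counts as they were, since each enzyme had 1 entry. Limma on log2(FPKM + 1) gave the enzymes the same changes with and without the filter. On TPM, which was not fitted, UROS (-0.0017) and PPOX (-0.095) came out below 0 while the median of all genes tested moved by -0.18. When a library was left out, the remaining library of its group was assumed to vary like the other group.

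The number of all genes past the threshold was 11 in edgeR, 150 in DESeq2, 31 without the filter, 39 with limma without the filter, and 0 with the replicate block and with limma on log2(FPKM + 1), on log2(FPKM + 0.1) or after quantile normalization. At unadjusted p under 0.05 the block gave 971 genes and those 3 limma fits 1424, 1604 and 1466. Leaving out a library gave 0 (without DMSO 1, with 1341 at unadjusted p under 0.05) to 30 (without SF1-8 1), with 21 without DMSO 2 and 28 without SF1-8 2. DESeq2 called 1 partner gene (ISCA2), and the other alternatives 0. The number of enzymes whose groups do not overlap was 0 on FPKM and 4, all lower, on TPM, a scale chosen after seeing the data on which 7588 of the 26167 genes tested were also lower in both SF1-8 libraries and 1651 higher. The cause of these differences was not tested.

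Leaving out each library gave log2 changes of -0.14 to 0.034 for ALAS1, -0.16 to -0.024 for ALAS2, -1.11 to 0.21 for ALAD, -0.034 to 0.32 for UROS, -0.19 to 0.14 for UROD, -0.29 to 0.32 for CPOX, -0.040 to 0.17 for PPOX and -0.061 to 0.60 for FECH. The sign turned without DMSO 2 for ALAS1 (0.034) and UROD (0.10), without SF1-8 2 for UROS (-0.034) and UROD (0.14), without DMSO 1 for CPOX (0.32) and PPOX (-0.040), and without SF1-8 1 for ALAD (0.21), CPOX (0.17) and FECH (-0.061).

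No label says whether libraries of the same replicate number were handled together. Replicate differences of DMSO and SF1-8 correlated across 8450 genes with Pearson's r of -0.061 and Spearman's rho of -0.054. With a single replicate difference per group, this cannot show whether the replicates were paired. With the replicate block the smallest p of an enzyme was 0.256.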
